A study of Mus musculus with 2 samples.

Results

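The genes described here are 8 members and antagonists of the activin system of the mouse: the activin subunits Inhba and Inhbb, the follistatin Fst with its relatives Fstl1 and Fstl3, the distant family cytokine Gdf15, and the receptors Acvr1 and Acvr2a. They are 8 of the 27998 genes in the count matrices and were found by symbol in both libraries. They were chosen by values measured in these libraries, among them the fold of Inhba between the fibroblast-like sums, so every level and fold below is a description and none is a test. Single-cell RNA sequencing from the 3′ end of transcripts (10x Genomics) had been run on 1 library of a pancreatic tumour group and 1 library of a normal pancreas group. The mice of both groups carried the Rosa26-mTmG reporter with a Cre recombinase under the Fabp4 promoter, so that cells with a history of Fabp4-Cre activity turn green. The tumour group had been implanted in the pancreas with FC1245 pancreatic ductal adenocarcinoma cells at 8 weeks of age, and tumours were taken 21 days later, digested first with collagenase IV and dispase, next with trypsin, and sorted for cells with both GFP and PDPN. The normal group was 6 to 9 weeks old, its pancreata were digested with pronase and collagenase P, and its cells were sorted for GFP without PDPN. Tissue, digestion and gate therefore cannot be told apart between the groups. The number of mice in each library is not given in the sources used here.

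Activins are secreted dimers of inhibin beta subunits, with Inhba encoding the beta A and Inhbb the beta B chain. They bind a type II receptor such as ACVR2A, which recruits a type I receptor that phosphorylates SMAD2 and SMAD3. Follistatin and FSTL3 wrap around activin and keep it from its receptors, and Fst is itself a well known target of SMAD signalling in several cell types. In the pancreas, activin A and follistatin are known from stellate cells, fibroblasts and islet development.

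After filtering, 2520 tumour cells and 4515 normal cells were kept, with medians of 10156.5 unique molecular identifiers (UMIs, each counting 1 captured transcript) per tumour cell and 7045 per normal cell. The libraries shared 4 barcodes, of which 2 were among the kept cells. Classes were named from fixed markers. The fibroblast-like class held 2222 tumour cells and 1468 normal cells. All 8 fibroblast markers were present in both, with summed levels of 37461 counts per 1000000 (CPM) in the tumour and 32046 CPM in the normal class. Stellate markers summed to 252 CPM in tumour and 231 CPM in normal fibroblast-like cells with Pdgfrb the highest of them, and the stellate marker Lrat was at 0 in the normal class. Markers of B or plasma cells summed to 1.60 CPM in tumour and 211 CPM in normal fibroblast-like cells, with Jchain the highest in the normal ones. Macrophage markers summed to 11.6 CPM in tumour and 80.2 CPM in normal cells, endothelial markers to 39.8 CPM in tumour and 159 CPM in normal cells, and acinar markers to 51.5 CPM in tumour and 351 CPM in normal cells. Their part in the results was not tested. A UMI of Pdpn was found in 82.3% of tumour (427 CPM) and 62.2% of normal fibroblast-like cells (148 CPM), so normal cells did not lack its RNA.

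Fibroblast-like cells formed 5 clusters, each called here by its leading gene. The Lrrc15 cluster (387 tumour cells, no normal cell) was also high in Cthrc1, Tnc and Col12a1, and the Thbs4 cluster (706 tumour cells, no normal cell) in Cilp and Mfap4. The Ptx3 cluster, high in Apod and C3, held 1093 tumour cells and 26 normal cells. The Efhd1 cluster, high in Sema3c, held 6 tumour cells and 372 normal cells. The Tenm4 cluster, high in Smoc2 and G0s2, held 30 tumour cells and 1070 normal cells. The 8 genes and a list of 49 further pathway genes were kept out of the variable genes, so their own counts did not shape the clusters, although Inhba was among the 10 leading genes of the Lrrc15 cluster. Each cluster came almost wholly from 1 library, so the effects of cluster and library cannot be told apart. Cells of the Lrrc15 cluster were deep, with a median of 26316 UMIs, against 10489 UMIs in the Thbs4 cluster and 8329 UMIs in the tumour cells of the Ptx3 cluster.

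Among the 8 genes, the widest gap between the libraries belonged to Inhba. Summed over fibroblast-like cells, Inhba had 4153 UMIs or 144 CPM in the tumour library and 41 UMIs or 2.92 CPM in the normal library, a fold of 49.4 with a 95% counting interval of 36.4 to 69.0. Fstl3, a follistatin-type antagonist of activin, had 66.7 CPM in tumour and 14.9 CPM in normal fibroblast-like cells, 4.48-fold higher (3.88 to 5.19). Both were called, a call being a fold of at least 2 with an interval that leaves out 1 and at least 50 CPM in either library. By that rule 9.4% of 3639 genes were higher and 10.9% were lower in the tumour library, 20.3% in either direction. Of the 5 genes of the system that reached 50 CPM, 2 were higher and 0 lower, which is too few genes to read against the background, and all come from the contrast that led to their choice. Intervals cover counting error only: with 1 library in each group the spread between mice is unknown and there is no replicate check.

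The other 6 genes differed by less or were below 50 CPM in both libraries. Fst had 174 CPM in tumour and 90.0 CPM in normal fibroblast-like cells, 1.93-fold higher (1.81 to 2.05), just under the limit for a call. Acvr1 had 52.6 CPM in tumour and 29.9 CPM in normal cells (1.76-fold, 1.58 to 1.97). Fstl1 had 1822 CPM in tumour and 1147 CPM in normal cells (1.59-fold, 1.56 to 1.62). These 3 genes passed the minimum and were not called, while the other 3 did not reach the minimum. Inhbb had 47.5 CPM in tumour and 21.9 CPM in normal cells, a fold of 2.17 (1.92 to 2.47). Gdf15 had 9.29 CPM in tumour and 5.42 CPM in normal cells, a fold of 1.72 (1.32 to 2.24). Acvr2a had the opposite direction to all the others, with 22.1 CPM in tumour and 46.3 CPM in normal cells, 2.10-fold lower (1.88 to 2.35).

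**Figure D1:**
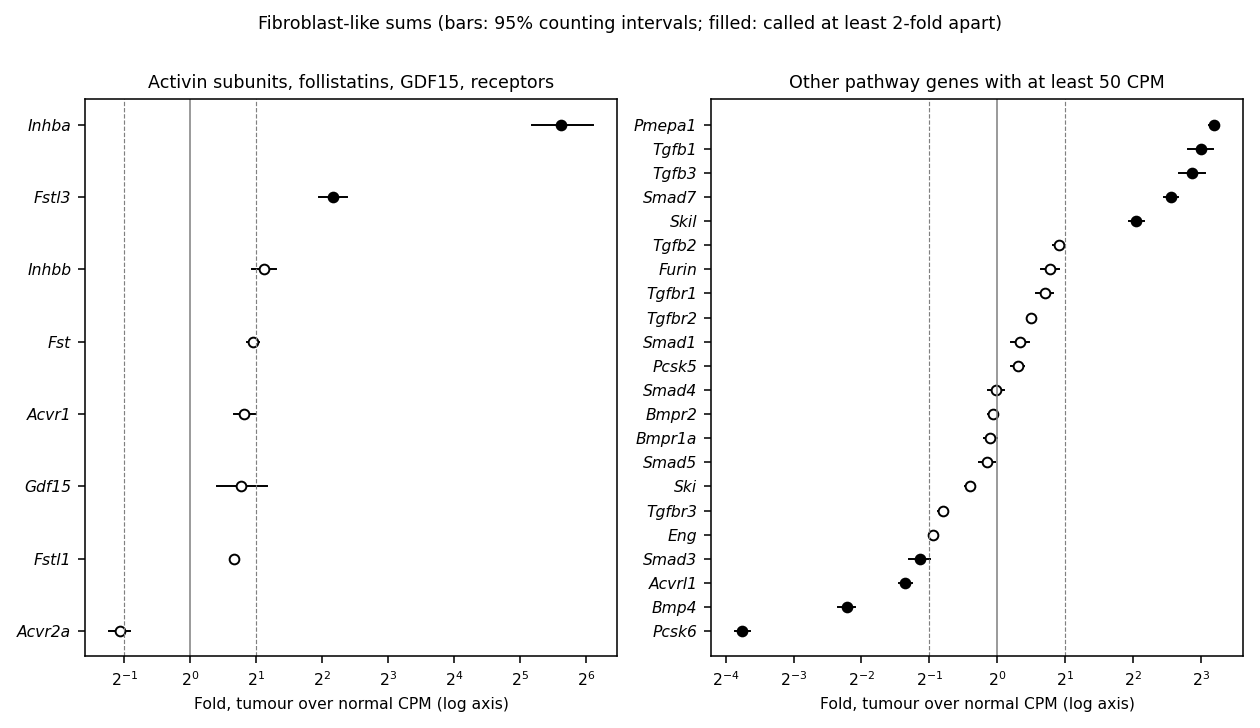
Fold of summed CPM, tumour over normal fibroblast-like cells, on a log axis, for the 8 genes (left) and for the 22 other pathway genes with at least 50 CPM (right); bars are 95% counting intervals, filled points are called genes and dashed lines mark 2-fold. Inhba lies far to the right at 49.4 and Acvr2a is the only one of the 8 left of 1.

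The scaling bears on the genes near the limit. The median log2 fold of all 3639 genes was -0.16 with scaling by total UMIs. TMM scaling shifted every log2 fold up by 0.32, and median ratio scaling by 0.22. Under both, Fst and Acvr1 passed 2-fold as well, so 4 of the 8 genes were higher, and the split over all genes turned to 505 higher and 222 lower with TMM, against 342 and 397 with total UMIs. Acvr2a kept its lower direction, at -0.75 on the log2 scale with TMM.

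The call for Inhba rested on 1 cluster. Inhba had 374 CPM in the Lrrc15 cluster (3849 UMIs, interval 362 to 386), 28.7 CPM in the Thbs4 cluster (225 UMIs) and 7.63 CPM in tumour cells of the Ptx3 cluster (79 UMIs). In normal cells it had 3.06 CPM in the Efhd1 cluster (15 UMIs) and 2.96 CPM in the Tenm4 cluster (26 UMIs). The tumour clusters thus stood in a clear order, with Lrrc15 13.0-fold above Thbs4 (11.4 to 14.98) and Thbs4 3.76-fold above Ptx3 (2.90 to 4.92), while the normal clusters did not differ beyond counting error. The Lrrc15 cluster made up 17.4% of tumour fibroblast-like cells and 35.8% of their UMIs, yet 92.7% of their Inhba UMIs. Without it, the log2 fold of Inhba over normal cells was 2.50, in place of 5.63, and the gene no longer reached 50 CPM.

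Within the Lrrc15 cluster Inhba was uneven. A UMI of Inhba was found in 57.1% of its cells, and in 39.4% (34.5% to 44.5%) after thinning every cell to 5000 UMIs, against 9.77% of thinned Thbs4 cells and 2.16% of thinned Ptx3 cells of the tumour. In thinned normal fibroblast-like cells the share was 0.981% (0.523% to 1.67%), and thinning left out 364 tumour and 143 normal cells as too shallow. Among other classes Inhba had 0 UMIs in 72 lymphatic endothelial-like and 52 B or plasma-like tumour cells, with median depths of 8454.5 and 2615.5 UMIs, while 1 of 23 T or NK-like tumour cells held 2 UMIs (19.0 CPM, 2.30 to 68.7). Normal endothelial-like cells, of which there were 1351 at a median depth of 3973 UMIs, had 0 as well, which allows a share of up to 0.222% of cells with a UMI at that depth. Cells of the cluster with a UMI held 17.4 Inhba UMIs on average. The top cell held 164, or 4.26% of the total, so no single cell set the level.

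The stretches of 250 bases before the start sites of Inhba and Fstl3, the called genes, are shown because both were higher in the tumour fibroblast-like cells. They come from RefSeq on GRCm38.p6, which matched 7 of the 8 genes. Inhba lies on chromosome 13 at chr13:16011851-16031621 of the plus strand (ENSMUSG00000041324), and Fstl3 on chromosome 10 at chr10:79777272-79782630 of the plus strand (ENSMUSG00000020325). The windows are chr13:16011601-16011850 and chr10:79777024-79777273, both of the plus strand. Gene spans are those of GENCODE, while each window ends just before the RefSeq start site. Capitals mark matches to TATAAA or CAGAC on either strand, so that TTTATA and GTCTG are matches on the minus strand.
Inhba: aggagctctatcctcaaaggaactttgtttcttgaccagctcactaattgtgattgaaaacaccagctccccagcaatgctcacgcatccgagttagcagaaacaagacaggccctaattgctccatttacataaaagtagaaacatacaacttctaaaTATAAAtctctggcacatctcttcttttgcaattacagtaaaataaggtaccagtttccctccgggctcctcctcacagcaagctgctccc
Fstl3: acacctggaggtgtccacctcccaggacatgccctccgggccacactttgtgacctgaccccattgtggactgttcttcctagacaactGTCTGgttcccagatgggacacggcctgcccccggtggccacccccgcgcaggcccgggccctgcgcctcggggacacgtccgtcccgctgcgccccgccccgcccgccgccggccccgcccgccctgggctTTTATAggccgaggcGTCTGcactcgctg

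The letters of the pair differed. The Inhba window had 43.2% G and C and the Fstl3 window 71.2%, against a median of 52.4% over 32851 promoters of the same length. Besides TATAAA, the TATA box (in 12.4% of those promoters), and CAGAC, a SMAD binding sequence (42.2%), the windows were searched on both strands for the AP-1 site TGANTCA (6.75%), the CRE site TGACGTCA (1.55%), the SMAD palindrome GTCTAGAC (0.167%) and the TEAD site GGAATG (12.6%). None of these motifs overlapped another within the windows. Inhba held only TATAAA, first base at position -91 from the start site. Fstl3 held TATAAA on the minus strand at -29 and CAGAC on the minus strand at -161 and -14. A match is a description of letters and no match says only that these letters are not in the window.

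Inhbb, the other beta chain, was placed differently from Inhba. It was highest in tumour cells of the Ptx3 cluster at 73.4 CPM (760 UMIs, interval 68.3 to 78.8), followed by 42.9 CPM in the Lrrc15 cluster and 18.7 CPM in the Thbs4 cluster. In normal cells it had 61.3 CPM in the 26 cells of the Ptx3 cluster (21 UMIs, 37.9 to 93.6), 47.1 CPM in the Efhd1 cluster and 6.26 CPM in the Tenm4 cluster. Among normal fibroblasts the Efhd1 cluster was 7.53-fold above the Tenm4 cluster (5.59 to 10.3), and it held 75.2% of the normal fibroblast-like Inhbb UMIs with 34.9% of all UMIs. Normal endothelial-like cells had 46.9 CPM of Inhbb, within counting error of the Efhd1 cluster and of the Lrrc15 cluster. The Ptx3 cluster, with 36.0% of all tumour fibroblast-like UMIs, gave 55.6% of those of Inhbb and 1.90% of those of Inhba. The Lrrc15 cluster gave 32.4% of those of Inhbb, near its 35.8% of all UMIs. The largest share of each beta chain thus came from a different cluster of the tumour library. With the Lrrc15 cluster left out, Inhbb reached the minimum and was called higher. With that cluster it was already 2.17-fold higher at 47.5 CPM, so the added call came only from crossing the minimum of 50 CPM.

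**Figure D2:**
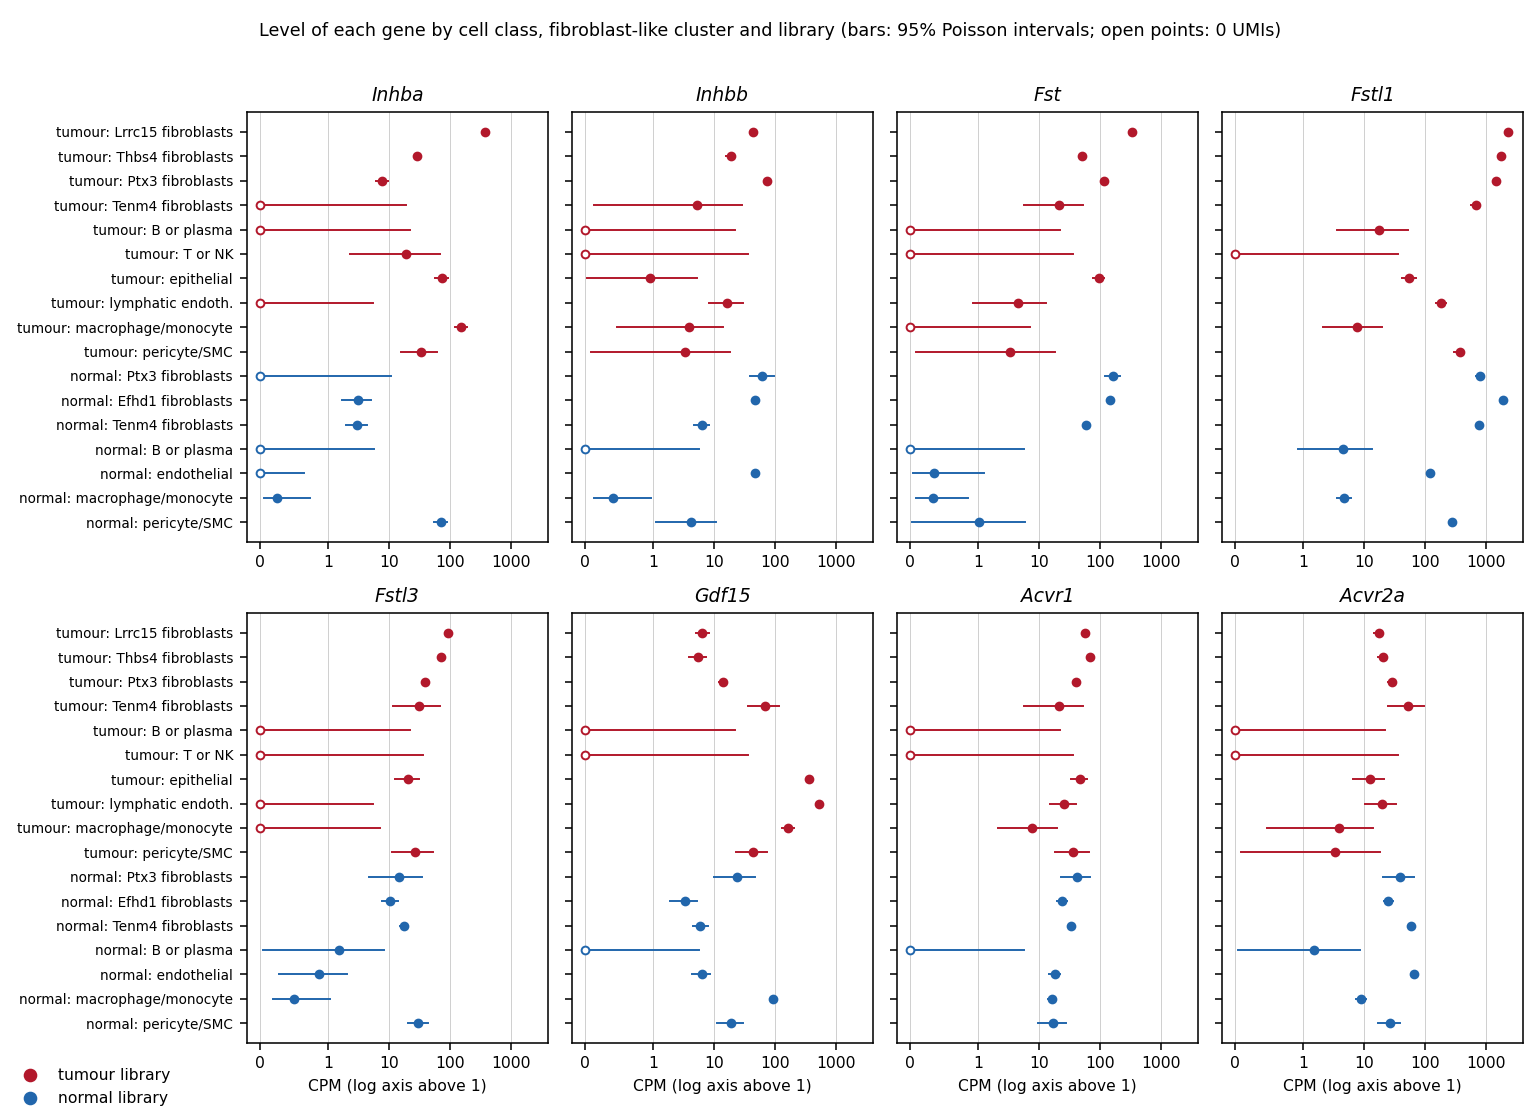
CPM of each of the 8 genes (panels, log axis above 1) in every class or fibroblast-like cluster with at least 20 cells, tumour library in red above normal library in blue, with 95% Poisson intervals and open points for 0 UMIs. Inhba and Fst peak in the Lrrc15 cluster, Inhbb in the Ptx3 cluster, Gdf15 outside the fibroblasts and Acvr2a in normal endothelial-like and Tenm4 cells.

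Fst, the follistatin gene, was highest where Inhba was highest but reached more clusters. It had 329 CPM in the Lrrc15 cluster (3383 UMIs), 116 CPM in tumour cells of the Ptx3 cluster and 50.6 CPM in the Thbs4 cluster. In normal cells Fst had 160.4 CPM in the Ptx3 cluster, 143 CPM in the Efhd1 cluster and 57.6 CPM in the Tenm4 cluster. Among clusters with over 30 cells in a library, Thbs4 was thus the low one in the tumour and Tenm4 in the normal library. These 2 levels did not differ beyond counting error. The 30 tumour cells of the Tenm4 cluster had 20.7 CPM from 4 UMIs (5.64 to 53.0). Lrrc15 exceeded Thbs4 6.50-fold (5.85 to 7.23), and Efhd1 exceeded Tenm4 2.49-fold (2.21 to 2.79). The Lrrc15 cluster gave 67.8% of tumour fibroblast-like Fst UMIs. Without it the log2 fold of Fst, tumour over normal, was -0.04, against 0.95 with it. The share of thinned fibroblast-like cells with a UMI of Fst was 24.7% in the tumour (22.8% to 26.7%) and 24.5% in the normal library (22.2% to 26.9%), and giving every cell the same weight reduced the log2 fold to 0.48. Fst was at 0 in 53 tumour macrophage or monocyte-like cells and had 4 UMIs in 1394 normal ones.

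Depth went with Fst inside the Lrrc15 cluster. Split by depth into 3 groups of 129 cells, Fst had 189.9 CPM in the shallowest, 296 CPM in the middle and 412 CPM in the deepest group (394 to 430). Inhba had 349, 363 and 393 CPM in the same order. Inhbb had 53.3, 53.1 and 31.3 CPM, so there it was lowest where Fst was highest. Fstl3 had 99.0, 104 and 83.3 CPM, with the deepest group (75.4 to 91.9) below the middle one (93.6 to 115.7). Other clusters shared these patterns only in part. In tumour cells of the Ptx3 cluster Fst also rose from the shallowest to the deepest group, with 79.5, 91.4 and 138 CPM. Inhbb rose there too, with 53.7, 59.8 and 85.1 CPM. In normal cells of the Efhd1 cluster Fst was level at 146, 144 and 141 CPM. Inhbb had 52.9, 48.9 and 42.5 CPM in those cells, within counting error. CPM is relative to each cell's total, and the part of depth, cell size or undetected doublets in these differences was not tested.

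**Figure D3:**
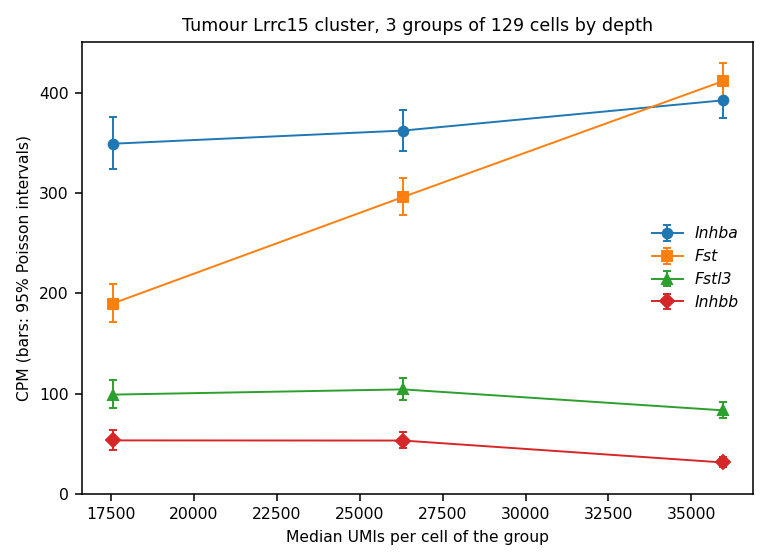
CPM of Inhba, Fst, Fstl3 and Inhbb in the 387 tumour cells of the Lrrc15 cluster, split into 3 groups of 129 cells by UMIs per cell; points are sums over the group with 95% Poisson intervals, placed at its median depth. Fst climbs from 189.9 CPM in the shallowest to 412 CPM in the deepest group, while Inhbb is lowest in the deepest group at 31.3 CPM.

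Detection of Inhba and Fst in the same cells of the Lrrc15 cluster was examined after thinning to 5000 UMIs, in 383 cells. A UMI of Fst was found in 56.3% of the 151 cells with Inhba (48.0% to 64.3%) and in 41.4% of the cells without (35.0% to 48.0%). The intervals just touch, which does not decide whether the shares differ. No test of the difference was run and cells are not replicates, so it is not read as a finding. Of cells with Inhbb, 32.1% had Fst (19.9% to 46.3%), against 49.7% of cells without Inhbb (44.2% to 55.2%).

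Fstl3 followed a single order over the tumour clusters. It had 93.4 CPM in the Lrrc15 cluster (961 UMIs), 69.7 CPM in the Thbs4 cluster and 38.7 CPM in tumour cells of the Ptx3 cluster, and the intervals of these levels did not overlap. In normal cells it had 17.4 CPM in the Tenm4 cluster (153 UMIs), 14.6 CPM in the Ptx3 cluster (5 UMIs) and 10.4 CPM in the Efhd1 cluster (51 UMIs). Every tumour cluster with more than 30 cells was thus above each normal cluster. Unlike Inhba, Fstl3 kept its call without the Lrrc15 cluster, at a log2 fold of 1.80 against 2.16 with it. The thinned share of cells with Fstl3 was 22.2% in tumour fibroblast-like cells (20.3% to 24.1%) and 6.87% in normal ones (5.57% to 8.37%), against 0.174% in normal macrophage or monocyte-like cells, whose median depth was 8198 UMIs. Outside fibroblasts Fstl3 stood highest in normal pericyte or smooth muscle-like cells, at 30.1 CPM (29 UMIs).

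Fstl1, a secreted glycoprotein named for a follistatin-like domain, was found in nearly every fibroblast-like cell, 97.5% in the tumour and 97.1% in the normal library. It had 2269 CPM in the Lrrc15 cluster, 1748 CPM in the Thbs4 cluster and 1446 CPM in tumour cells of the Ptx3 cluster. In normal cells Fstl1 had 1867 CPM in the Efhd1 cluster, 773 CPM in the Ptx3 cluster and 760.1 CPM in the Tenm4 cluster. As a sum the normal Efhd1 cluster was thus second of all, between the tumour clusters Lrrc15 and Thbs4. Split by depth into groups of 124 cells, it had 1543, 1719 and 2164 CPM of Fstl1, so only its deepest group lay above the Thbs4 level. The 1.59-fold difference between libraries was smaller than the 2.46-fold difference between Efhd1 and Tenm4 cells of the normal library (2.38 to 2.54). The follistatin genes did not share 1 order in the sums of normal cells. Fstl3 was 1.67-fold lower in Efhd1 than in Tenm4 cells (1.21 to 2.35), while Fst and Fstl1 were higher there. In the shallowest 124 Efhd1 cells, however, Fstl3 had 22.2 CPM (14.5 to 32.5), against 7.33 CPM in the middle and 6.20 CPM in the deepest group. That shallowest group was within counting error of the Tenm4 cluster, so the lower Fstl3 level came from the deeper Efhd1 cells. Fstl1 also reached 363 CPM in tumour and 272 CPM in normal pericyte or smooth muscle-like cells. The tumour cells of that class had 1347 CPM of the collagen gene Col1a1 and 114 CPM of the pericyte gene Rgs5, against 85.1 CPM and 5915 CPM in normal ones, so the class did not hold the same cells in both libraries.

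**Figure D4:**
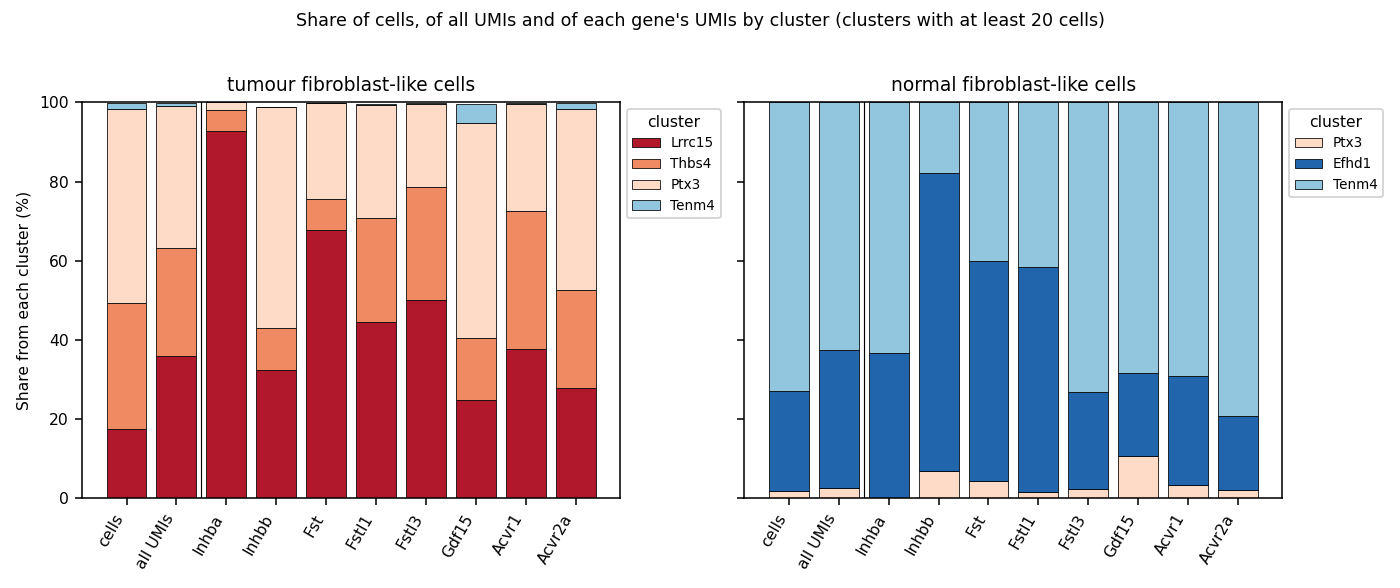
Share of cells, of all UMIs and of each gene's UMIs that came from each fibroblast-like cluster with at least 20 cells, in tumour (left) and normal (right) cells. The Lrrc15 cluster gave 92.7% of tumour Inhba UMIs from 17.4% of cells. The Ptx3 cluster gave 55.6% of tumour Inhbb UMIs from 49.2% of cells, and the Efhd1 cluster 75.2% of normal Inhbb UMIs from 25.3%.

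Inhba was not limited to fibroblasts. In tumour macrophage or monocyte-like cells it had 150.0 CPM (119 to 187), from 78 UMIs in 7 of 53 cells, against 0.249 CPM from 3 UMIs in 1394 normal cells of the class. The fold was 603 (199 to 2986) and Inhba was called, as 1 of the 2 genes of the 8 that reached 50 CPM there, Gdf15 being the other. In this class 14.4% of 3500 genes were higher and 13.6% lower, 27.9% in either direction. A single tumour cell held 38 of the 78 UMIs, and the level was 80.3 CPM without it. Of the 53 tumour cells 48 lay in a cluster led by Ear2 and Il1b, which held 132 of the normal cells, most normal ones being in clusters led by Clec10a, Cd5l or Cx3cr1. Within the Ear2 cluster Inhba had 163 CPM in tumour and 1.45 CPM in normal cells, a fold of 112 that rests on 2 normal UMIs (30.1 to 944). In the same 53 tumour cells Fst had 0 UMIs and Fstl1 had 7.69 CPM from 4 UMIs.

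Epithelial and mural cells also had Inhba. The 42 ductal or tumour epithelial-like cells, all from the tumour library, had 72.3 CPM (76 UMIs in 14 cells), or 48.1 CPM without the cell that held 26 of them. Normal pericyte or smooth muscle-like cells had 70.6 CPM (68 UMIs in 32 of 151 cells), more UMIs than the 41 of all normal fibroblast-like cells. Tumour cells of that class had 32.7 CPM from 10 UMIs in 32 cells, but the class held only 2 tumour cells with lenient filters, with doublets kept or at Leiden resolution 1, so this level depends on the clustering. The single intervals of these 3 levels overlapped from the first to the next (57.0 to 90.5, 54.8 to 89.5 and 15.7 to 60.1 CPM). Such overlap does not show that the levels are equal, and no fold between them was computed. With mural cells added to the fibroblast-like sums, the log2 fold of Inhba was 4.30.

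Gdf15, which encodes a stress-induced hormone that acts through the receptor GFRAL with its partner RET, was low in the larger fibroblast-like clusters and high in a few other classes. It had 514 CPM in tumour lymphatic endothelial-like cells (345 UMIs in 25 of 72 cells) and 354 CPM in tumour epithelial-like cells (372 UMIs in 23 of 42 cells). In macrophage or monocyte-like cells it had 162 CPM in the tumour (84 UMIs in 9 of 53 cells) and 91.7 CPM in the normal library (1106 UMIs in 144 of 1394 cells), 1.76-fold higher (1.39 to 2.20). A single tumour cell held 42 of the 84 UMIs, and without it the tumour level was 82.2 CPM (59.2 to 111), below the normal one, so the direction rests on that cell. In each of these tumour classes a few cells carried the sum. The top 5 cells held 62.3% of the Gdf15 UMIs of lymphatic endothelial-like cells, 85.2% of those of epithelial-like cells and 94.0% of those of tumour macrophage or monocyte-like cells, shares that depend on the small size of these classes. In the Ear2 cluster, the top 5 of 48 tumour cells held 96.9% of the Gdf15 UMIs, and 5 of 132 normal cells held all 79. Within the Ear2 cluster Gdf15 had 67.0 CPM in tumour and 57.4 CPM in normal cells, a fold of 1.17 whose interval includes 1 (0.749 to 1.78). Normal macrophages differed among themselves, with 144 CPM in the cluster led by Cd5l and Marco, 73.4 CPM in the Clec10a cluster and 58.5 CPM in the Cx3cr1 cluster. Fibroblast-like clusters with over 30 cells lay between 3.26 CPM in normal Efhd1 cells and 14.0 CPM in tumour Ptx3 cells.

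Both receptors were found in fibroblast-like cells and in other classes. Acvr1, a type I receptor known mainly for BMP signals that also binds activin A, had 67.2 CPM in the Thbs4 cluster, 55.4 CPM in the Lrrc15 cluster and 39.6 CPM in tumour cells of the Ptx3 cluster. In normal cells Acvr1 had 40.8 CPM in the Ptx3 cluster, 33.0 CPM in the Tenm4 cluster and 23.4 CPM in the Efhd1 cluster. The Thbs4 cluster was the highest and the Lrrc15 cluster next, with no overlap of their intervals with each other or with the larger normal clusters. Acvr1 was found in 23.6% of thinned tumour (21.7% to 25.6%) and 13.9% of thinned normal fibroblast-like cells (12.1% to 15.9%). It was at 0 in B or plasma-like cells of both libraries. A count of 0 allows up to 17.6 CPM in the 52 tumour cells and 4.50 CPM in the 70 normal cells of that class.

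Acvr2a, a type II receptor that binds activins directly, ran the other way. It had 17.1 CPM in the Lrrc15 cluster, 20.01 CPM in the Thbs4 cluster and 28.0 CPM in tumour cells of the Ptx3 cluster. In normal fibroblast-like cells it had 24.9 CPM in the Efhd1 cluster, 37.9 CPM in the Ptx3 cluster and 58.6 CPM in the Tenm4 cluster. The Lrrc15 cluster was 3.43-fold below the normal Tenm4 cluster (2.88 to 4.09) and 1.45-fold below the normal Efhd1 cluster (1.15 to 1.84). Tumour cells of the Ptx3 cluster were within counting error of the Efhd1 cluster. The 30 tumour cells in the Tenm4 cluster had 51.8 CPM from 10 UMIs (24.8 to 95.2), which overlaps the level of the normal cells there. Normal endothelial-like cells had 65.4 CPM (377 UMIs), the highest level of any class, within counting error of the normal Tenm4 cluster. The cluster with most Inhba was thus the fibroblast-like cluster with the lowest Acvr2a level among the larger ones, within counting error of the Thbs4 cluster.

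Of the list of 49 further genes of the pathway, 22 reached 50 CPM, and 5 of these (22.7%) were called higher and 4 (18.2%) lower in tumour fibroblast-like cells, beside 9.4% higher and 10.9% lower over all genes. Their median log2 fold was 0.14, beside -0.16 for all genes, with single folds spread between -3.75 and 3.20, so the medians are not read as different. Among ligands, Tgfb1 had 144 CPM in tumour and 18.0 CPM in normal cells (8.01-fold), and Tgfb3 had 122 CPM in tumour and 16.7 CPM in normal cells (7.31-fold). Bmp4 was lower, with 24.7 CPM in tumour and 115 CPM in normal cells (4.64-fold lower). Among intracellular genes, 3 known SMAD-induced inhibitors were higher. Pmepa1 had 1053 CPM in tumour and 115 CPM in normal cells (9.18-fold), Smad7 had 362 CPM in tumour and 61.5 CPM in normal cells (5.89-fold), and Skil had 226 CPM in tumour and 54.7 CPM in normal cells (4.14-fold). Smad3, the signal transducer itself, was lower, with 23.6 CPM in tumour and 52.0 CPM in normal cells (2.20-fold lower).

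Of the 7 receptors and co-receptors of the list that reached 50 CPM, 0 were called higher and 1 lower, too few to read against the shares over all genes. Acvrl1, a type I receptor of the BMP branch, had 60.3 CPM in tumour and 154 CPM in normal fibroblast-like cells (2.55-fold lower), and the other 6 were not called. Of the 3 proprotein convertases, which cut activin and its relatives from their precursors, Pcsk6 was 13.5-fold lower, with 29.1 CPM in tumour and 392 CPM in normal cells. Pcsk6 is also a leading gene of the normal Efhd1 cluster. None of 8 further secreted proteins of the list, mostly antagonists, nor the membrane pseudoreceptor Bambi, and none of the 2 parts of the GDF15 receptor reached 50 CPM.

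The genes whose levels ran most alike were looked up over the 12 classes and clusters with at least 50 cells, by Pearson correlation of log2(CPM + 1) among 6209 genes. For Inhba they were Acsl4 (r = 0.89), Smim3 (0.85) and Col7a1 (0.82), and for Inhbb Dnpep, Gja1 and Srgap1 (0.92 each). For Fst they were Il33 (0.98), Dclk1 (0.97) and Tmem45a (0.97), for Fstl3 Ror2 (0.99), Fat1 (0.97) and Dact3 (0.97), and for Fstl1 Aebp1 (0.98), Hspb8 (0.98) and Ptk7 (0.98). Acvr1 ran with Kremen1 (0.98), Fkbp9 (0.97) and Eid1 (0.97), Acvr2a with Trip10 (0.97), Gna11 (0.97) and Pttg1ip (0.96), and Gdf15 with Znhit1 (0.90), Arrb1 (0.89) and Sdcbp (0.89). The 12 points share 2 libraries and differ in depth. They leave out the 42 ductal or tumour epithelial-like cells, which were among the highest for Gdf15 (354 CPM) and Inhba (72.3 CPM). Each list is the top 3 of 6209 genes over 12 points, so its values of r can be high by selection alone.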

How the data were processed

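Both libraries were made with the 10x Genomics 3′ assay, and the authors used Cell Ranger 3.1.0 on mm10, per the file headers and the submitters' processing notes. The deposited values are raw UMI counts for barcodes already called as cells (33285044 UMIs in 2942 tumour and 36675424 in 5437 normal barcodes). The cell filters were a minimum of 500 genes and of 1000 UMIs and a maximum of 10% mitochondrial UMIs. Scrublet then removed 53 tumour cells (2.06%, its top scores, since its own threshold marked 0.0777%) and 101 normal cells (2.19%). Cells were clustered jointly without integration (scanpy 1.11.5, igraph 0.11.9: 2000 variable genes less 14 of the genes studied, 30 principal components, 15 neighbours, Leiden resolution 0.5). A cluster was named where at least 3 markers of a class were found in at least 25% of its cells. UMIs were summed per class or cluster and library and given as CPM, scaled to 1000000. Intervals are exact at 95% (Poisson for CPM, Clopper-Pearson for shares, ratio of Poisson counts for folds, scipy 1.17.1), and a count of 0 was bounded by 3 counts. They cover counting error only. TMM factors came from edgeR 4.0.16. No test between conditions was possible with 1 library in each group. Fold calculations were checked on simulated counts. Positions of genes on GRCm38 follow GENCODE vM21.

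The members and lists were chosen with earlier results of these data known. The genes named are the 8 members, the pathway genes called at least 2-fold apart, class markers and leading genes, and for each member the 3 genes most like it. Alternatives covered cell filters, doublets, clustering, scaling, cell weight, depth, the PDPN gate, the classes summed, and the limits of a call.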

Additional observations from a re-analysis of the deposited data

How the results depend on the processing

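Inhba and Fstl3, the called genes of the 8, stayed higher in tumour fibroblast-like cells in each of 12 alternatives, and Inhba in each of 7 for macrophage or monocyte-like cells. The log2 fold of Fst was -0.04 without the Lrrc15 cluster, against 0.95 with it. Further pathway genes were followed only as counts. Among the 8 genes in fibroblast-like cells, 2 were higher and 0 lower. There were 4 higher with TMM scaling and 4 with median ratio scaling (Fst and Acvr1 added) and 5 at 1.5-fold. With no minimum CPM, and likewise with a minimum of 20 CPM, there were 3 higher (Inhbb added) and 1 lower (Acvr2a). Adding pericyte or smooth muscle-like cells gave 3 higher (Fst added). Without the Lrrc15 cluster 2 were higher, but Inhbb took the place of Inhba. Inhba then fell below the minimum of 50 CPM, while Inhbb, at 47.5 CPM with that cluster, came to pass it. Of the 49 further genes, 5 were higher and 4 lower. There were 8 higher with TMM scaling, 8 higher and 9 lower with no minimum CPM, and 8 higher at 1.5-fold. Over all genes, 342 were higher and 397 lower. There were 222 lower with TMM and 262 lower with median ratio scaling, 1457 higher and 2620 lower with no minimum, 524 higher and 777 lower at 20 CPM, and 565 higher and 898 lower at 1.5-fold. More genes enter the count when a limit is lowered, and TMM or median ratio scaling moves every log2 fold up by the same amount. The cause of the remaining changes was not tested. In macrophage or monocyte-like cells 2 genes in place of 1 were higher with strict cell filters (Gdf15 added, log2 fold 1.10). The log2 fold of Gdf15 in fibroblast-like cells was 1.82 in cells with a Pdpn UMI, against 0.78 in all of them. The log2 fold of Inhba was 4.64 with every cell weighted the same.

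Leaving out libraries was not possible with 1 in each group. No paired analysis was possible because each group has 1 library. In fibroblast-like sums 1 UMI equals 0.0348 CPM for the tumour and 0.0713 CPM for the normal library, so depth does not limit the levels there, whereas 53 tumour macrophage or monocyte-like cells set wide intervals. The settings limited to the Ear2 cluster or leaving out a single macrophage were chosen after seeing the data.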
